A study of Mus musculus with 9 samples.

Results

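Glycolysis converts glucose to pyruvate, and most of its steps can be run by more than 1 isoenzyme, each encoded by its own gene. The 10 genes described here encode isoforms of hexokinase (Hk1, Hk2), glucose phosphate isomerase (Gpi1), aldolase (Aldoa), phosphoglycerate mutase (Pgam1, Pgam2), enolase (Eno1, Eno3) and lactate dehydrogenase (Ldha, Ldhb). They were chosen by name, and every probe set that the array's annotation assigned to a member alone was taken, with Eno1 also accepted beside a paralogue. Of the 10 genes 8 had a probe set, 11 probe sets in all among the 12488 of the array, and Eno1 and Gpi1 were not analysed here. Pgam2, Eno3 and Hk2 are known as the forms abundant in skeletal muscle, while Pgam1 and Hk1 are found in most tissues, including brain. Lactate dehydrogenase is a tetramer of A and B subunits; the A form prevails in tissues that make lactate and the B form in heart. The cornea is avascular and takes its glucose from the aqueous humour, and the fibre cells of the lens lose their mitochondria and live by glycolysis.

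Gene expression was measured on 9 Affymetrix mouse arrays hybridised with biotin-labelled targets, and the question was how the developing and the adult cornea differ from lens and tendon. The groups were adult cornea at 7 weeks of age (3 arrays), cornea at postnatal day 10 (P10, 2 arrays), lens at 7 weeks (2 arrays) and flexor digitorum longus tendon at 7 weeks (2 arrays). Each array had its own RNA preparation, made from pooled tissue for lens and tendon, so p-values measure the spread between preparations. No strain or genetic change was given in the sources used here. Corneas were cut free of the limbus and their epithelium was scraped away. How much epithelial RNA remained was not tested. The cornea arrays had already served another study, so batch and tissue cannot be told apart in any comparison of cornea with lens or tendon. In whole tissue, fewer cells of a type and less RNA per cell cannot be told apart.

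The values are expression indices in arbitrary units on a linear scale, as deposited. Array medians ran from 67.6 to 88.0 units. Precision is limited by how few arrays each tissue has. Adult cornea replicate 1 stood apart in RNA quality, with a 3'/5' ratio of the Gapdh control of 2.25, against 0.831 to 1.04 on the other 8 arrays. The defining markers were present in their tissues, with a summed index of 47019.0 to 48922 for 10 lens genes on the lens arrays and of 19097 to 21223 for 4 tendon genes on the tendon arrays. The sum of 9 corneal stroma genes was 8118 to 9309.6 in adult cornea and 19410.4 to 19822 in P10 cornea, against 2323 to 4229.7 in lens and 24974 to 27202 in tendon, so this list does not tell cornea from tendon. Corneas also read corneal epithelial markers, with a sum over 12 genes of 28708 to 31699 in adult cornea and 29770 to 30869 in P10 cornea, against 3155 to 4000 in lens and 1204 to 1974 in tendon. Tendon arrays read skeletal muscle markers, as described with the mutases and enolase.

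Both hexokinases, which phosphorylate glucose at its entry into the cell, were measured. Hk1 had 1563, 1852 and 1936 units in adult cornea, 1869 and 1675 units in P10 cornea, 1629 and 1221 units in lens and 847 and 901 units in tendon. All 7 eye arrays lay above both tendon arrays, and lens overlapped with adult cornea. Hk2, the insulin-regulated form of muscle and fat, was highest in tendon and lowest in cornea. It had 60.4, 67.7 and 65.7 units in adult cornea, 47.6 and 46.4 units in P10 cornea, 162 and 114 units in lens and 332 and 329.6 units in tendon. No pair of tissues overlapped in Hk2. A further Hk2 probe set read only 2.01 to 12.5 units over the 9 arrays, below the median of every array, and was not tested.

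Values were compared with limma on log2(value + 16), with all 9 arrays in 1 fit and a threshold of 0.05 on p-values adjusted by Benjamini-Hochberg over 8154 tested probe sets. Folds are on this scale and understate the differences of low genes. Hk1 was 2.02-fold higher in adult cornea than in tendon (log2 difference 1.01 ± 0.18 SE, limma adjusted p = 0.00147) and 2.01-fold higher in P10 cornea than in tendon (adjusted p = 0.00403). Lens exceeded tendon in Hk1 by 1.60-fold (limma adjusted p = 0.0151). That call was lost without lens replicate 1 (adjusted p = 0.0797), tendon replicate 1 (adjusted p = 0.0899) or tendon replicate 2 (adjusted p = 0.0580), all limma adjusted values. Hk1 did not pass between adult cornea and lens (log2 difference 0.33 ± 0.18 SE, limma adjusted p = 0.147), but it did after quantile normalization (adjusted p = 0.0166) and without lens replicate 1 (adjusted p = 0.0433). Between P10 cornea and lens it did not pass either (limma adjusted p = 0.189), but it did after quantile normalization (adjusted p = 0.0487). Hk2 was 4.31-fold lower in adult cornea than in tendon (log2 difference -2.11 ± 0.19 SE, limma adjusted p = 1.39e-05) and 5.50-fold lower in P10 cornea than in tendon (adjusted p = 1.46e-05). It was 1.89-fold lower in adult cornea (log2 difference -0.92 ± 0.19 SE, limma adjusted p = 0.00234) and 2.42-fold lower in P10 cornea (adjusted p = 0.000639) than in lens, and 2.28-fold lower in lens than in tendon (adjusted p = 0.000856). The 5 calls of Hk2 held under all 18 alternative limma fits. Hk2 reached the array median only on the 4 lens and tendon arrays and passed the filter on low values through these, where it is high. Its calls in cornea against these tissues are thus not independent of the filter. A fit without that filter was among the 18. In Hk2 the order was tendon, lens, adult cornea and P10 cornea, and only the 2 corneal ages did not differ beyond their spread by the test (limma adjusted p = 0.415).

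**Figure D1:**
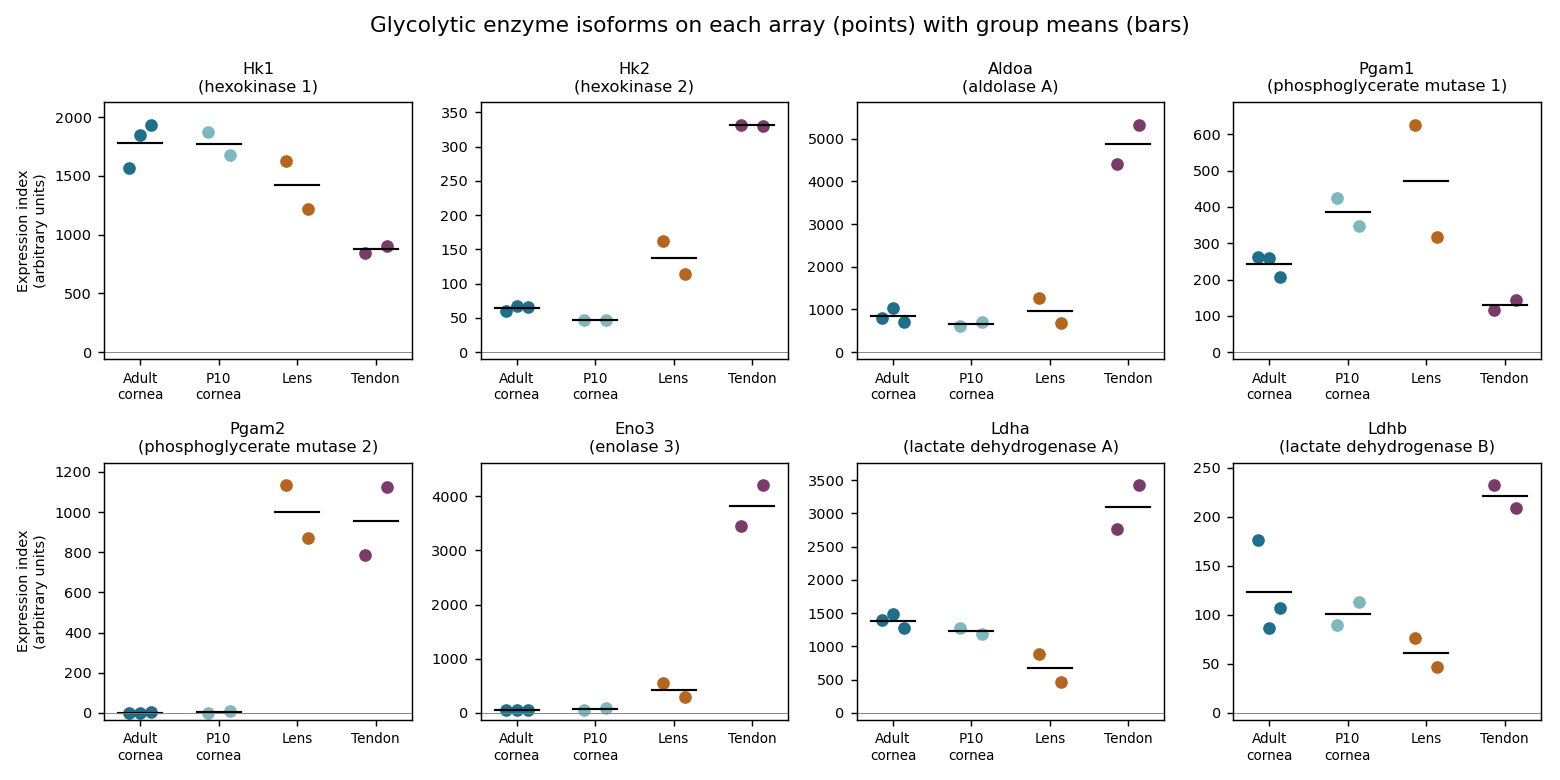
Expression index (linear, arbitrary units) of the 8 measured genes on each array; points are arrays, bars are group means, and the panels have separate scales. Hk1 and Pgam1 are lowest on the tendon arrays (847 to 901 and 115 to 144 units), Eno3 and Aldoa are highest there (3449.9 to 4201 and 4398 to 5329 units), and Pgam2 is high in lens and tendon only.

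Aldolase A, the aldolase of muscle and of most other tissues, cleaves the phosphorylated hexose into triose phosphates. Its brighter probe set read 808, 1041 and 714 units in adult cornea, 621 and 712 units in P10 cornea, 1272 and 679 units in lens and 4398 and 5329 units in tendon. Both tendon arrays lay above all eye arrays, and lens overlapped with both corneal ages. Aldoa was 5.65-fold lower in adult cornea than in tendon (log2 difference -2.50 ± 0.27 SE, limma adjusted p = 4.77e-05), 7.13-fold lower in P10 cornea than in tendon (adjusted p = 6.31e-05) and 5.13-fold lower in lens than in tendon (adjusted p = 8.70e-05). The other Aldoa probe set gave 5.15-fold, 6.88-fold and 5.07-fold for the same 3 comparisons. Aldoa did not pass between adult cornea and lens (limma adjusted p = 0.688) or between P10 cornea and lens (adjusted p = 0.196), although the last passed without lens replicate 2 (adjusted p = 0.0247). Both Aldoa probe sets carry the suffix that the platform gives to probes shared within a gene family, and a part of other aldolases in their values was not tested.

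Phosphoglycerate mutase moves the phosphate group of the triose acid before enolase acts. Pgam1 had 261, 258 and 206 units in adult cornea, 423 and 348 units in P10 cornea, 627 and 318 units in lens and 115 and 144 units in tendon. Tendon was lowest on both arrays, and lens overlapped with P10 cornea. Pgam2, the muscle form, had -0.189, 0.660 and 4.43 units in adult cornea and -1.46 and 7.96 units in P10 cornea, against 1133 and 869.7 units in lens and 787 and 1124 units in tendon. Pgam2 thus read near 0 on all 5 cornea arrays and between 787 and 1133 units on all 4 lens and tendon arrays, and lens and tendon overlapped. Pgam2, Eno3 and Hk2 reached the median of their array on 4 arrays, those of lens and tendon, and passed the filter on low values through these alone.

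Pgam2 was lower in adult cornea, with log2 differences of -5.84 against lens and -5.77 against tendon (limma adjusted p = 2.55e-07 and 1.10e-07), and in P10 cornea, with -5.69 against lens and -5.61 against tendon (adjusted p = 6.10e-07 and 3.92e-07). The sizes are set by the pseudocount, since the cornea read near 0, and ran from -8.90 to -4.01 for adult cornea against lens over the 18 alternative limma fits, so no fold is given. Since Pgam2 passed the filter on low values only through lens and tendon, its calls in cornea against them are not independent of that filter. Pgam2 did not pass between lens and tendon (log2 difference 0.08 ± 0.27 SE, limma adjusted p = 0.845). Pgam1 was 1.77-fold higher in adult cornea than in tendon (log2 difference 0.82 ± 0.28 SE, limma adjusted p = 0.0418), 2.76-fold higher in P10 cornea than in tendon (adjusted p = 0.00575) and 3.19-fold higher in lens than in tendon (adjusted p = 0.00115). It was 1.81-fold lower in adult cornea than in lens (log2 difference -0.85 ± 0.28 SE, limma adjusted p = 0.0258) and did not pass between P10 cornea and lens (adjusted p = 0.577). The call of Pgam1 between adult cornea and lens was lost when lens replicate 1 (limma adjusted p = 0.236) or adult cornea replicate 3 (adjusted p = 0.0545) was left out, and also with a replicate block (adjusted p = 0.0542) and with only both groups in the fit (adjusted p = 0.0624). That between adult cornea and tendon was lost in 7 of 18 alternative fits. The limma adjusted p was 0.258 without tendon replicate 1, 0.102 without tendon replicate 2, 0.108 and 0.0808 without adult cornea replicates 1 and 2, and 0.0600 and 0.0598 without P10 cornea replicates 1 and 2; with a pseudocount of 64 it was 0.0560. That between P10 cornea and tendon was lost without P10 cornea replicate 1 (limma adjusted p = 0.0546) or tendon replicate 1 (adjusted p = 0.0608).

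Enolase makes phosphoenolpyruvate, and Eno3 encodes its beta subunit, the form of adult skeletal muscle. Eno3 had 46.3, 49.1 and 53.9 units in adult cornea, 61.9 and 83.0 units in P10 cornea, 561 and 294 units in lens and 3449.9 and 4201 units in tendon. No pair of tissues overlapped, and the order was tendon, lens, P10 cornea and adult cornea. Eno3 was 58.2-fold lower in adult cornea than in tendon (log2 difference -5.86 ± 0.26 SE, limma adjusted p = 1.35e-07) and 43.5-fold lower in P10 cornea than in tendon (adjusted p = 6.04e-07). It was 6.44-fold lower in adult cornea than in lens (limma adjusted p = 2.02e-05), 4.82-fold lower in P10 cornea than in lens (adjusted p = 0.000141) and 9.04-fold lower in lens than in tendon (adjusted p = 1.10e-05). The 2 corneal ages did not differ by the test (limma adjusted p = 0.521). Eno3 passed the filter on low values only through lens and tendon, where it is high, so its calls in cornea against them are not independent of that filter. Pgam2 and Eno3 differed in this respect: lens and tendon overlapped in Pgam2, while every tendon array was above every lens array in Eno3.

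The promoters of these neighbours in the pathway are shown because Pgam2 and Eno3 are the members whose level in cornea and tendon differed most. Each sequence holds the 250 bases before the start that RefSeq's promoter windows use on GRCm38.p6, 5' to 3' on the gene's strand, at chr19:41911621-41911870 for Pgam1 (plus strand), chr11:5803797-5804046 for Pgam2 (minus strand) and chr11:70656926-70657175 for Eno3 (plus strand). The Pgam1 and Pgam2 windows end at the edge of the annotated gene, while that of Eno3 lies inside it, at a start downstream of the first base of the gene (chr11:70653125-70662513). Capitals mark ACGTG, the core of the hypoxia response element, in Pgam1 and the consensus of MEF2, a muscle transcription factor family, in Pgam2.
Pgam1: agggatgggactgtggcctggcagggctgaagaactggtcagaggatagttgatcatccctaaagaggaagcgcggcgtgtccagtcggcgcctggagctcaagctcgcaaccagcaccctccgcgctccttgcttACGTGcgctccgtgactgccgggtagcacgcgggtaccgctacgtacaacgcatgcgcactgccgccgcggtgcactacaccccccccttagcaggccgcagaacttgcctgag
Pgam2: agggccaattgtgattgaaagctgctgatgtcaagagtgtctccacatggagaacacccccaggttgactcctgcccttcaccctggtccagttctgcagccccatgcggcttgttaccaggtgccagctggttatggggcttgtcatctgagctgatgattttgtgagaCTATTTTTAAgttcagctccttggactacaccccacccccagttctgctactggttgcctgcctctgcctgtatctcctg
Eno3: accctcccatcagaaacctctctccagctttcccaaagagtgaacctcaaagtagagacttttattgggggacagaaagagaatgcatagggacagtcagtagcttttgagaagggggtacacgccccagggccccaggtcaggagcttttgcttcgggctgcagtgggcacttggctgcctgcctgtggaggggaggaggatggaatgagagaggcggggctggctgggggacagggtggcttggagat
On both strands, the Pgam2 window held 1 match to the MEF2 consensus, beginning 80 bases before the start, and 5 to CANNTG, the E-box that muscle regulatory factors share with others. The Eno3 window held 1 CANNTG and no MEF2 match, and the Pgam1 window held 1 ACGTG at 114 bases before the start. Among 32841 windows of the same length, 2.92% held the MEF2 consensus, 66.2% held CANNTG and 16.6% held the hypoxia core ACGTG. A match describes the letters only, and the absence of one says nothing about a factor.

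Most of the listed skeletal muscle genes were read on the tendon arrays with the muscle isoforms. The summed index of 22 measured muscle markers was 1706 to 1933 in adult cornea, 2440.1 to 2595 in P10 cornea and 2609 to 2696 in lens, against 56026 to 65044 on the tendon arrays. On the tendon arrays 20 of the 22 reached the array median, while 12 lay below it on all adult cornea arrays. By limma at the same threshold 18 of 22 were lower in adult cornea than in tendon and none higher. Of all tested probe sets 18.9% were lower. Markers that passed the filter on low values through the tendon arrays alone were bound to read lower in cornea, so this count is no independent support. Ckm, the creatine kinase of muscle, had 3.90 and 19.6 units in lens and 3349 and 3879.7 units in tendon. Tnnt3, troponin T of fast fibres, had 21.7 and 26.8 units in lens and 5919 and 6599 units in tendon. Both lay below the median of every cornea and lens array and passed that filter through the tendon arrays alone. In lens against tendon limma called 3 of the 22 higher and 18 lower, beside 22.6% and 26.4% of all tested probe sets. The limit set by the filter applies here too. Myh2 had 108 and 175 units in lens and 22.6 and 19.6 units in tendon. Myh4 had 114 and 185 units in lens and 72.0 and 61.4 units in tendon. Mb had 497 and 455 units in lens and 258 and 213 units in tendon. Tnnc2 had 145 to 294 units in adult cornea and 247 and 246 units in tendon. The part of muscle RNA in the tendon values of Pgam2, Eno3, Aldoa, Hk2 and Ldha was not tested.

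On the lens arrays the muscle list was mixed. In adult cornea against lens 2 of the 22 markers were higher and 7 lower. Limma called 51.2% of the 8154 probe sets in that comparison (27.2% higher and 24.0% lower). On both lens arrays 10 of the 22 markers lay below the array median, Ckm and Tnnt3 among them. Another 11 reached it on both, Casq1 and Actn3 among them. Pgam2 read 869.7 to 1133 units on the lens arrays. Casq1, calsequestrin of the sarcoplasmic reticulum, had 28.1 to 67.5 units in adult cornea, 345 and 276 units in lens and 1922 and 2784 units in tendon. Actn3, the actinin of fast fibres, had 52.0 to 119 units in adult cornea, 423 and 287 units in lens and 2434 and 3045 units in tendon. Both were lower in adult cornea than in lens (limma adjusted p = 0.000131 for Casq1 and 0.000456 for Actn3). Cornea arrays also read lens genes. The sum over 10 markers was 6478 to 10374 in adult cornea and 8797 to 15056 in P10 cornea, against 578 to 623 in tendon. Of the 10, 7 reached the array median on all adult cornea arrays, while Mip and Gja3 lay below it on all. Mip had 27.2 to 37.7 units in adult cornea and 1918 and 1800 units in lens. Gja3 had -0.0567 to 3.32 units in adult cornea and 546 and 415 units in lens. Pgam2 was near 0 on the cornea arrays, and the part of lens RNA in their values was not tested.

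**Figure D2:**
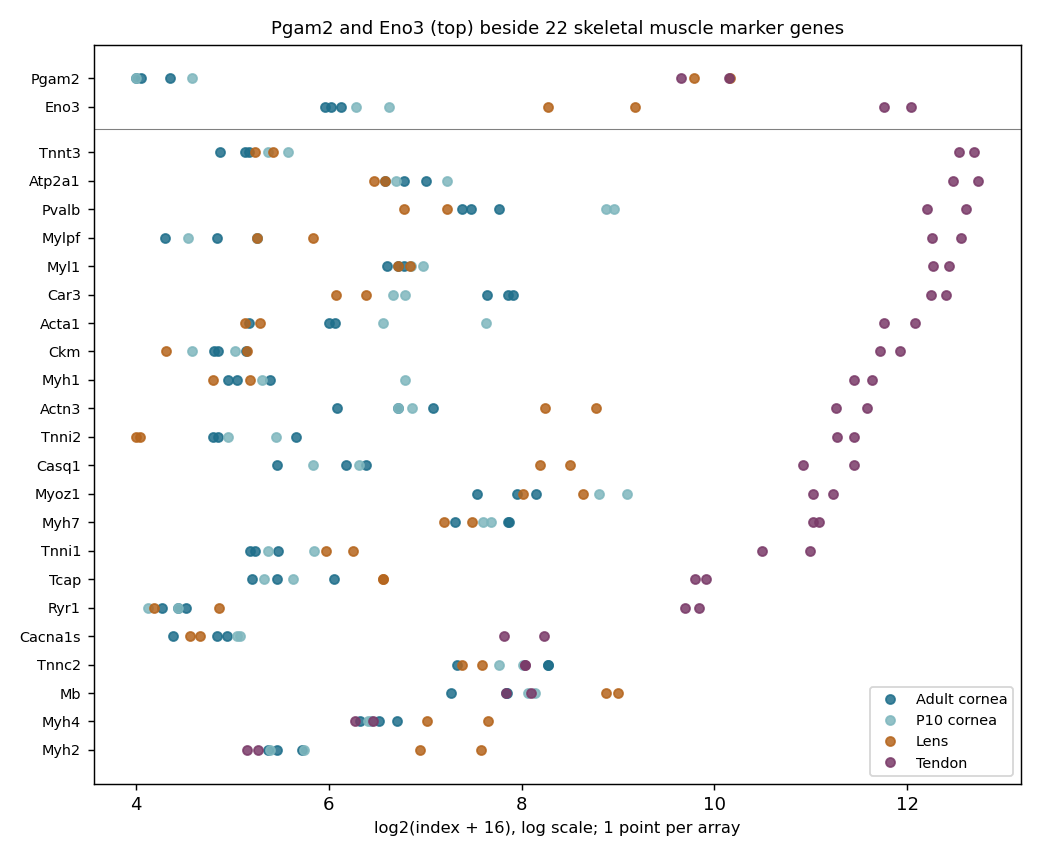
log2(index + 16) of Pgam2, Eno3 and the 22 measured skeletal muscle markers on each of the 9 arrays; each point is an array and each row a gene, with Pgam2 and Eno3 above the line. Tendon arrays lie far to the right for 18 of the markers, lens arrays lie with the corneas for Ckm and Tnnt3 and to the right of them for Casq1 and Actn3, and the lens points of Pgam2 lie beside its tendon points.

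Lactate dehydrogenase turns pyruvate into lactate and back. Ldha had 1391, 1489 and 1273 units in adult cornea, 1273 and 1180.3 units in P10 cornea, 879.6 and 469 units in lens and 2761 and 3423 units in tendon. Tendon was highest and lens lowest, with no overlap between any pair of tissues, although adult and P10 cornea lay within 1 unit of each other at their nearest arrays. Ldhb had 176, 86.6 and 107 units in adult cornea, 90.1 and 113 units in P10 cornea, 76.0 and 46.9 units in lens and 232 and 209.5 units in tendon. Ldhb followed the same order, with the corneal ages overlapping. The other Ldhb probe set read 5.11 to 16.2 units on all 9 arrays and was not tested.

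Ldha was 2.12-fold higher in adult cornea (log2 difference 1.08 ± 0.24 SE, limma adjusted p = 0.00402) and 1.88-fold higher in P10 cornea (adjusted p = 0.0162) than in lens. Against tendon it was 2.21-fold lower in adult cornea (log2 difference -1.14 ± 0.24 SE, limma adjusted p = 0.00436), 2.49-fold lower in P10 cornea (adjusted p = 0.00504) and 4.69-fold lower in lens (adjusted p = 6.93e-05). Without tendon replicate 2 the calls of Ldha against tendon were lost for adult cornea (limma adjusted p = 0.0588) and P10 cornea (adjusted p = 0.0541). The call of P10 cornea against lens was lost without lens replicate 2 (limma adjusted p = 0.0960), without P10 cornea replicate 1 (adjusted p = 0.0832) or 2 (adjusted p = 0.0531), and with only both groups in the fit (adjusted p = 0.0565). Ldhb was 3.11-fold lower in lens than in tendon (limma adjusted p = 0.00148), which held in all 18 alternative limma fits.

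The differences of Ldhb between cornea and the other tissues were less stable. Ldhb was 1.77-fold higher in adult cornea than in lens (log2 difference 0.82 ± 0.28 SE, limma adjusted p = 0.0330), 1.76-fold lower in adult cornea than in tendon (adjusted p = 0.0457) and 2.02-fold lower in P10 cornea than in tendon (adjusted p = 0.0342). The call between adult cornea and lens was lost without adult cornea replicate 1 (limma adjusted p = 0.0916), lens replicate 2 (adjusted p = 0.252) or tendon replicate 1 or 2 (adjusted p = 0.0529 and 0.0530), and with only both groups in the fit (adjusted p = 0.0811). That between adult cornea and tendon was lost in 10 of 18 alternative fits. The limma adjusted p was 0.226 and 0.145 without tendon replicates 1 and 2, 0.105 and 0.0810 without adult cornea replicates 2 and 3, and 0.0636 and 0.0634 without P10 cornea replicates 1 and 2; the other 4 lay between 0.0557 and 0.0741. That between P10 cornea and tendon was lost without P10 cornea replicate 1 (limma adjusted p = 0.195) or 2 (adjusted p = 0.0843), without tendon replicate 1 (adjusted p = 0.179) or 2 (adjusted p = 0.115), and with a pseudocount of 1 (adjusted p = 0.0544). Ldhb did not pass between P10 cornea and lens (limma adjusted p = 0.118).

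The promoters of this pair are shown because Ldha is a textbook target of hypoxia signalling. They hold the 250 bases before the start in the same RefSeq windows, at chr7:46845554-46845803 for the first of the 2 Ldha windows listed there (plus strand) and chr6:142507958-142508207 for Ldhb (minus strand). The Ldhb window ends at the edge of its gene, while both Ldha windows lie inside the annotated gene (chr7:46842274-46855627). Capitals mark ACGTG or its reverse complement, and the E-boxes that overlap it.
Ldha: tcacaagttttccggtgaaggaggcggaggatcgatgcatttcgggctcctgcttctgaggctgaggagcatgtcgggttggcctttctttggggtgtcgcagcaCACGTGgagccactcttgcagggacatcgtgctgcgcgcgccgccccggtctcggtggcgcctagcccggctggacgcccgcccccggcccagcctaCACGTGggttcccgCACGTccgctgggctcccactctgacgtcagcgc
Ldhb: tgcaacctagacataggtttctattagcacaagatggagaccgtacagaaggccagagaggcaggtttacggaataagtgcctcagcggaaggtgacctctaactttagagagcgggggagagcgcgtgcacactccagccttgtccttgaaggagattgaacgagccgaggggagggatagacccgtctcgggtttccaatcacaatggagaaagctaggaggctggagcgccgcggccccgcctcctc
The Ldha window held 5 matches to ACGTG on both strands, of which 4 came from a palindromic pair each at 145 and 48 bases before the start and lay within a CANNTG match. The remaining match began 34 bases before the start. The Ldhb window held none of the motifs searched, MEF2 included. The other Ldha window held 2 CANNTG matches and none to the hypoxia core.

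Levels of different probe sets cannot be set against each other, so the use of isoforms was described by how the ratio within an array moved between tissues. These ratios were not tested. The log2 ratio of Pgam2 over Pgam1 was -3.87 ± 0.37 in adult cornea (SD, n = 3), -4.35 ± 0.61 in P10 cornea, 1.12 ± 0.40 in lens and 2.72 ± 0.15 in tendon (SD, n = 2 each). The corneal ages overlapped and every other pair of tissues was separate. The corneal values are set by the pseudocount, since Pgam2 read near 0 there: the mean in adult cornea was -6.86 with a pseudocount of 1 and -2.21 with 64. The difference of the log2 ratio was -1.60 for lens against tendon. Pgam2 did not pass between lens and tendon, and Pgam1 had 627 and 318 units in lens and 115 and 144 units in tendon.

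The log2 ratio of Hk2 over Hk1 was -4.48 ± 0.10 in adult cornea (SD, n = 3), -4.82 ± 0.09 in P10 cornea, -3.23 ± 0.03 in lens and -1.36 ± 0.07 in tendon (SD, n = 2 each). No pair of tissues overlapped, and the difference was -3.12 for adult cornea against tendon. The dim Hk2 probe set gave a smaller spread of group means, 0.92 on the log2 scale, against 3.47 with the brighter probe set. The ratio of Ldha over Ldhb was 3.38 ± 0.50 in adult cornea (SD, n = 3), 3.41 ± 0.27 in P10 cornea, 3.12 ± 0.24 in lens and 3.71 ± 0.32 in tendon (SD, n = 2 each), and of the pairs of tissues only lens and tendon were separate. The group means of this ratio spanned 0.59 on the log2 scale, 0.95 with a pseudocount of 64 and 2.30 with the other Ldhb probe set, which read near 0. Those of Pgam2 over Pgam1 spanned 7.07, and 9.86 and 5.10 with pseudocounts of 1 and 64.

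**Figure D3:**
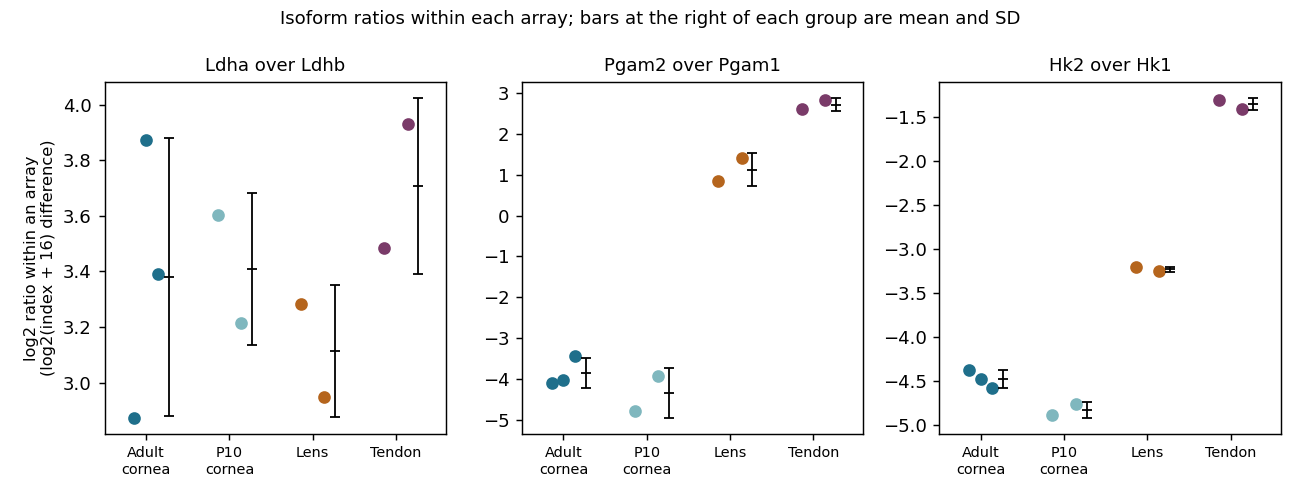
Difference of log2(index + 16) between isoforms of the same enzyme on each array, with mean and SD beside each group; the panels have separate scales. Adult cornea (-4.11 to -3.44) and P10 cornea (-4.78 to -3.92) lie below lens and tendon for Pgam2 over Pgam1, at a depth that the pseudocount sets, tissues step up from cornea to tendon for Hk2 over Hk1, and Ldha over Ldhb stays between 2.87 and 3.93 on all arrays.

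Between the corneal ages none of the 8 genes passed. In adult against P10 cornea 0 of 8 were called by limma, where 4.57% of all tested probe sets were called (0.699% higher and 3.88% lower), 1 had an unadjusted p under 0.05, and the methods' t-test called none. That gene was Pgam1, with 261, 258 and 206 units in adult cornea against 423 and 348 units in P10 cornea (log2 difference -0.64 ± 0.28 SE, unadjusted p = 0.0429, limma adjusted p = 0.291). The groups did not overlap in Pgam1. The limma adjusted p of the other 7 genes was 0.415 to 0.997. The median log2 difference of all tested probe sets was -0.13 here, 0.03 after quantile normalization and 0.06 after median centring. Relative to that median the log2 differences of the 8 genes ran from -0.51 for Pgam1 to 0.48 for Hk2, with Aldoa at 0.46 and 0.55 by its other probe set. Markers of the corneal stroma also moved with age, with 5 of 9 lower in adult than in P10 cornea and none higher by limma, and their part in the members' values was not tested. Members that do not pass at this number of arrays are not shown to be equal.

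Against lens, adult cornea differed in 6 of 8 genes, 2 higher (Ldha, Ldhb) and 4 lower (Pgam1, Pgam2, Eno3, Hk2), where 51.2% of all tested probe sets were called, 27.2% higher and 24.0% lower. P10 cornea differed from lens in 4 of 8, with Ldha higher and Pgam2, Eno3 and Hk2 lower, where 51.0% of all were called, 31.6% higher and 19.4% lower. With so large a share of all probe sets called between cornea and lens, these counts are not particular to the members. The calls of Pgam2, Eno3 and Hk2 in them are also not independent of the filter on low values. These genes passed that filter only through lens and tendon, where they are high. The median of all tested probe sets was 0.25 on the log2 scale for P10 cornea against lens, and relative to it Ldha was 0.67 higher. All 8 genes read lower on lens replicate 2 than on lens replicate 1, Ldha at 469 against 879.6 units and Pgam1 at 318 against 627 units.

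Against tendon all 8 genes differed in both corneal ages, with Hk1 and Pgam1 higher and Ldha, Ldhb, Pgam2, Eno3, Aldoa and Hk2 lower in cornea. Of all tested probe sets 35.0% were called in adult cornea against tendon (16.1% higher and 18.9% lower) and 26.7% in P10 cornea against tendon (15.7% higher and 11.0% lower). The median log2 difference of the 8 genes was -1.63 in adult cornea against tendon, beside 0.01 for all tested probe sets, and -1.89 in P10 cornea against tendon, beside 0.13. Pgam2, Eno3 and Hk2 passed the filter on low values only through lens and tendon. Their part in the counts of cornea against tendon and in these medians is thus not independent of that filter. In lens against tendon 7 of 8 differed, with Hk1 and Pgam1 higher and Ldha, Ldhb, Eno3, Aldoa and Hk2 lower in lens, where 49.0% of all were called, 22.6% higher and 26.4% lower. Adult and P10 cornea were set against the same tendon and lens arrays, so their comparisons share those arrays.

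The rest of the pathway was described with lists of named genes. Of 9 other glycolytic enzymes tested, 1 was higher and 4 lower in adult cornea than in tendon, 3 higher and 4 lower in adult cornea than in lens, 3 higher and 4 lower in lens than in tendon, and none passed between adult and P10 cornea. Between P10 cornea and lens 3 were higher and 3 lower, and between P10 cornea and tendon 1 was higher and 4 lower. These counts stand beside 35.0% of all tested probe sets called in adult cornea against tendon, 51.2% in adult cornea against lens, 51.0% in P10 cornea against lens, 26.7% in P10 cornea against tendon and 49.0% in lens against tendon, and nothing particular to any pathway list is read from them. Pfkm, the muscle phosphofructokinase, had 126, 137 and 85.8 units in adult cornea, 118 and 109 units in P10 cornea, 62.0 and 71.7 units in lens and 1354 and 1611 units in tendon. It was 11.5-fold lower in adult cornea and 18.0-fold lower in lens than in tendon (limma adjusted p = 1.00e-06 and 4.88e-07). Pkm, pyruvate kinase of muscle and most other tissues, was 3.89-fold lower in adult cornea than in tendon (limma adjusted p = 0.000809) and 2.16-fold higher in adult cornea than in lens (adjusted p = 0.0137).

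Aldoc, the aldolase best known from brain, went the other way from Aldoa against tendon, where it was lowest and Aldoa highest. It had 88.8, 157 and 77.8 units in adult cornea, 82.3 and 86.2 units in P10 cornea and 1546 and 904 units in lens, and read below 0 on both tendon arrays (-15.3 and -8.05 units). Lens was above all other arrays. Aldoc was 10.1-fold lower in adult cornea than in lens (log2 difference -3.33 ± 0.30 SE, limma adjusted p = 1.02e-05) and higher in lens than in tendon by a log2 difference of 6.23 that the pseudocount sets (adjusted p = 2.83e-07). Pgk1, phosphoglycerate kinase, was 2.16-fold lower in adult cornea than in lens (limma adjusted p = 0.00365). Gapdhs, the glyceraldehyde phosphate dehydrogenase known from sperm, had 47.0 to 65.3 units in adult cornea and 378 and 444 units in lens, from a probe set whose suffix marks probes chosen under relaxed rules.

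**Figure D4:**
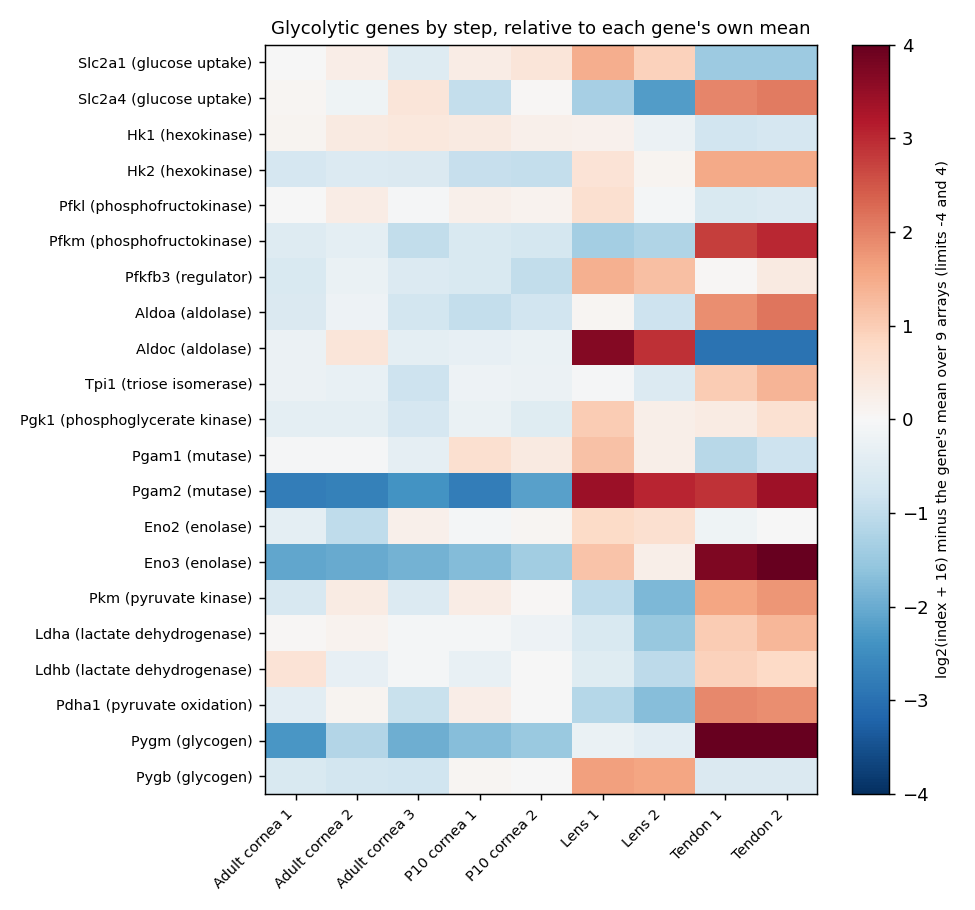
Difference of log2(index + 16) from each gene's own mean over the 9 arrays (colour, limits -4 and 4) for genes from glucose uptake to pyruvate oxidation and glycogen; each column is an array and each row a gene. Tendon columns are red for Pfkm, Aldoa, Eno3, Pkm, Ldha and Pygm, lens columns for Slc2a1, Pfkfb3, Aldoc and Pygb, and both for Pgam2.

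Glucose and lactate transporters were counted in the same way. Of 6 transport genes tested, 2 were higher and 1 lower in adult cornea than in tendon, and 1 higher and 2 lower in adult cornea than in lens, while none passed between the corneal ages. Between P10 cornea and lens 2 were higher and 2 lower, between P10 cornea and tendon 2 higher and 1 lower, and between lens and tendon 3 higher and 2 lower. The 3 of 6 called in adult cornea against lens stand beside 51.2% of all tested probe sets, and the 3 of 6 against tendon beside 35.0%. For P10 cornea these shares were 51.0% against lens and 26.7% against tendon, and for lens against tendon 49.0%. Slc2a1, the transporter GLUT1 of barriers and red cells, had 243, 301 and 167 units in adult cornea, 306 and 355 units in P10 cornea, 709 and 486 units in lens and 80.3 and 79.6 units in tendon. It was 2.45-fold lower in adult cornea than in lens (limma adjusted p = 0.00220) and 2.57-fold higher in adult cornea than in tendon (adjusted p = 0.00242). Slc2a4, the insulin-responsive GLUT4 of muscle and fat, had 21.7 and 4.17 units in lens and 349 and 383 units in tendon. It was 3.71-fold lower in adult cornea than in tendon (limma adjusted p = 0.00184) and higher in adult cornea than in lens by a log2 difference of 1.90 that the pseudocount sets, since lens read near 0 (adjusted p = 0.00118). Adipocyte markers were also read, with a sum over 7 genes of 596 to 948 in adult cornea, 701 to 731 in P10 cornea and 1645 to 1936 in lens, against 5542 to 5919 in tendon. Of these sums Lep alone gave 378 to 650 units in adult cornea and 474 and 424 units in P10 cornea. It had 1330 and 1620 units in lens and 1181 and 814 units in tendon. Cd36 too read higher in lens, at 87.4 and 102 units, than in tendon, at 66.9 and 48.4 units. Adipoq, Fabp4, Lpl, Retn and Pparg read higher on both tendon arrays than on any other array. The part of adipocyte RNA in the values of Slc2a4 and Hk2 was not tested.

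Among 8 tested regulators and genes of pyruvate entry, 1 was higher and 5 lower in adult cornea than in tendon, 1 higher and 1 lower in adult cornea than in lens, and none passed between the corneal ages. In P10 cornea 4 were higher and 1 lower than in lens, and 2 higher and 5 lower than in tendon, and in lens 2 were higher and 5 lower than in tendon. The 2 of 8 called in adult cornea against lens compare with 51.2% of all tested probe sets, and the 6 of 8 against tendon with 35.0%. For P10 cornea these shares were 51.0% against lens and 26.7% against tendon, and for lens against tendon 49.0%. Pfkfb3, which makes the activator of phosphofructokinase, had 905 and 780.4 units in lens and was 3.46-fold lower in adult cornea than in lens (limma adjusted p = 6.09e-05). Pdha1, a subunit of pyruvate dehydrogenase, had 1531 and 1476 units in tendon and was 4.85-fold lower in adult cornea than in tendon (limma adjusted p = 0.000174). Pdk4 of the same list differed more in that comparison, 5.23-fold lower in adult cornea (limma adjusted p = 1.75e-05).

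Of 14 genes of glycogen, gluconeogenesis and the glycerol shuttle, 9 were lower and none higher in adult cornea than in tendon, and 3 were higher and 4 lower in adult cornea than in lens. In P10 cornea 3 were higher and 3 lower than in lens, and 1 higher and 8 lower than in tendon, and in lens 2 were higher and 9 lower than in tendon. Of all tested probe sets 35.0% were called against tendon (16.1% higher and 18.9% lower) and 51.2% against lens (27.2% higher and 24.0% lower) in adult cornea. In P10 cornea 51.0% were called against lens (31.6% higher and 19.4% lower) and 26.7% against tendon (15.7% higher and 11.0% lower). In lens against tendon 49.0% were called (22.6% higher and 26.4% lower). The forms of glycogen phosphorylase differed by tissue. Pygm, its muscle form, had 0.118 to 19.7 units in adult cornea, 51.2 and 44.2 units in lens and 1853 and 2305 units in tendon. Pygb, its brain form, had 90.6, 81.9 and 77.2 units in adult cornea, 153 and 145 units in P10 cornea, 492 and 469 units in lens and 91.9 and 92.2 units in tendon. Pygb was 5.01-fold lower in adult cornea than in lens (limma adjusted p = 2.71e-06) and 1.67-fold lower in adult than in P10 cornea (adjusted p = 0.0367), the only call between the ages among the 44 genes tested in the 5 pathway lists. In the pentose phosphate pathway, 4 of 7 genes were higher in adult cornea than in tendon and none lower, and 3 were higher and 1 lower in adult cornea than in lens. In P10 cornea 4 were higher than in lens and 3 higher than in tendon, and in lens 3 were higher than in tendon. None of the 7 was lower in these comparisons or passed between the corneal ages. The pentose phosphate counts stand beside the same shares of all tested probe sets. Tkt, transketolase, an abundant enzyme of the cornea, had 4242 to 4690 units on the 5 cornea arrays, against 896 and 475 units in lens and 115 and 133 units in tendon.

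For 6 of the members the 3 other genes with the most similar pattern were listed, by the root mean square difference of log2 values over the 9 arrays, after each probe set's own mean was subtracted. They were taken from 7232 probe sets with 1 gene, and the 9 arrays cover only 4 groups. Eno3 was closest to Casq1 (0.37), Actn3 (0.51), both on the muscle marker list, and to Rtn2, a reticulon (0.58). Closest to Pgam2 were Fxyd1, a regulator of the sodium pump (0.90), Cilp2 (0.95) and S100a4, a calcium-binding protein (1.07). The root mean square difference grows with a gene's range over the tissues, so its size cannot be compared between members. The range of Pgam2 is set by the pseudocount, since it read near 0 in cornea. Hk2 was closest to Pnpla2, the triglyceride lipase of fat (0.27), Hgd of tyrosine breakdown (0.29) and the growth factor gene Tgfb3 (0.30), and Hk1 to Hacd3 (0.14), Fryl (0.14) and Micos13 (0.16). Ldha was closest to Coq10a (0.19), Jund, a subunit of the transcription factor AP-1 (0.20), and Myo1d (0.20). Ldhb was closest to Myadm (0.24), Sucla2, a subunit of succinate-CoA ligase (0.24), and the repressor gene Bcl6 (0.25).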

How the data were processed

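Per the labels, 9 RNA preparations gave 1 Affymetrix array each. The deposited values are an intensity, a linear expression index per probe set in arbitrary units. The series' design text names Microarray Suite 5.0 (expression, background, detection) followed by dChip with invariant-set normalization and a model-based index, while the submitters' processing notes name MAS5. Which of them gave the authors' deposited intensity: not given in the sources used here. Detection calls were not used here. Some values lie below 0. The number of arrays limits the precision.

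Of 12488 probe sets 66 were controls, and of the others 10833 carried 1 gene symbol, 396 several and 1193 none. Trimmed means of the arrays, over percentiles 2 to 98, differed by at most 1.17 times, so the deposited scaling was kept. Values below 0 became 0, and tests used log2(value + 16). The 8154 probe sets tested had 2 or more arrays, of 9, with a value at or above the median of that array. A model of 4 group means was fitted with limma 3.58.1 in R 4.3.3 with a mean-variance trend, and two-sided p-values were adjusted by Benjamini-Hochberg within each of 6 comparisons at a threshold of 0.05. The test was checked on simulated data. Tables and ratios were computed with Python 3.11.15, numpy 2.4.6 and pandas 2.3.3.

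Each gene was read from the brightest of its probe sets on average. Named were all members, marker genes and the 3 nearest patterns of 6 members. From each pathway list up to 4 called genes with the largest difference in each comparison were eligible, and only some of these were named. The members and lists were chosen with earlier results of these data known. Promoter sequences are RefSeq's on GRCm38.p6 and matched all 8 measured members. For the probe sets themselves, build and coordinates were not used here. Replicate numbers only name arrays. They were not treated as paired, since nothing in the labels says that a number marks a shared animal, litter or day. The deviations of same-numbered arrays from their group means correlated at -0.36 to 0.20 over 12 pairs. In groups of 2 arrays the deviations mirror each other, so some of these values repeat and the pairs are not independent.

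Alternatives were pseudocounts of 1 and 64, filters on low values (none, or 4 arrays), median centring, trimmed mean scaling, quantile normalization, fits restricted to both groups of a comparison, a replicate block, leaving out each array, and the methods' t-test (fold of at least 2, difference of at least 100 units, unadjusted p under 0.05).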

Additional observations from a re-analysis of the deposited data

How the results depend on the processing

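Over the 18 alternative limma fits no called gene turned its direction. The 9 fits that left out an array gave 432 values for the 8 genes in 6 comparisons, of which 32 lost a call and 2 gained one. The other limma settings also gave 432, of which 10 lost a call and 2 gained one. In 12 values over both kinds of fit, a difference that had not passed turned its sign. The lost calls were those of Ldha, Ldhb, Pgam1 and Hk1, while those of Pgam2, Eno3, Aldoa and Hk2 were kept in all 18. In the main fit Pgam2, Eno3 and Hk2 passed the filter on low values only through lens and tendon, where they are high. Of the 8 genes in adult cornea against tendon, 5 to 8 were called when an array was left out, the 5 without tendon replicate 2. When an array was left out, 5 to 6 were called in adult cornea against lens, 3 to 4 in P10 cornea against lens, 6 to 8 in P10 cornea against tendon and 6 to 7 in lens against tendon. The methods' t-test called 3 in adult cornea against lens and 1 in P10 cornea against lens. Against tendon it called 6 in adult cornea, 8 in P10 cornea and 5 in lens. After Benjamini-Hochberg adjustment that test called 1 in adult cornea against lens, 4 in adult cornea against tendon, 0 in P10 cornea against lens, 1 in P10 cornea against tendon and 0 in lens against tendon; it estimates its spread from the 2 groups alone. The replicate block called 0 in adult against P10 cornea, 5 in adult cornea against lens, 7 in adult cornea against tendon, 4 and 8 in P10 cornea against lens and tendon, and 7 in lens against tendon. It lost Pgam1 in adult cornea against lens (limma adjusted p = 0.0542) and Ldhb in adult cornea against tendon (adjusted p = 0.0646) and changed no other call of the 8 genes. Over all tested probe sets, leaving out an array gave 84 to 426 calls in adult against P10 cornea, where 373 were called, 1667 to 3210 in adult cornea against tendon, where 2856 were, and 1062 to 2603 in P10 cornea against tendon, where 2174 were. Fits of only the groups compared gave 194 in adult against P10 cornea and 3832 in P10 cornea against tendon. The methods' t-test gave 223, 1771, 1294, 1812, 1127 and 1936 calls in adult against P10 cornea, adult cornea against lens, adult cornea against tendon, P10 cornea against lens, P10 cornea against tendon and lens against tendon, and 0, 852, 775, 350, 95 and 923 after adjustment. The cause of these changes was not tested. Groups of 2 or 3 arrays limit what can be called, and Pgam2 in cornea, Slc2a4 in lens, Aldoc in tendon and the dim probe sets of Ldhb and Hk2 lie too near 0 for a fold.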
